A study of Homo sapiens with 12 samples.

Results

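The sequences described here were the variants of a reporter library whose codon before the last sense codon, the penultimate codon, encoded valine or isoleucine and whose following codons were 1 sense codon and a stop codon. They were chosen by measured values: in an earlier look at the same tables these 2 amino acids gave high responses to NMD inhibition at this place in the EJC-independent reporter. The level of these variants in that reporter is therefore given as a description only. The library varied a window of 10 bases. Bases 1 to 3 were the penultimate codon, bases 4 to 6 the last codon before the stop, bases 7 to 9 a stop codon (TAA, TAG or TGA) or the tryptophan codon TGG, which does not end translation, and base 10 the first base after it. Of 5124 possible windows with 1 of the 4 valine or 3 isoleucine codons, a sense last codon and a stop, 2986 were listed for the EJC-independent reporter and 3763 for the EJC-enhanced reporter, in tables of 41955 and 51306 variants. After a minimum mean normalized count of 10, 2974 windows (1721 valine, 1253 isoleucine) and 3753 windows (2158 valine, 1595 isoleucine) passed, out of 28964 and 34522 stop variants with 2 sense codons before the stop. TGG windows served as controls, and 1101 and 1474 of those with valine or isoleucine passed.

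The cells were HEK293T, a human embryonic kidney cell line, wild type apart from the library, which Cre-Lox recombination had placed at a single genomic site. The coordinates of that site and the reporters' full sequences were not given in the sources used here. The windows are therefore designed sequence without a genome position. Cells carried either an EJC-independent or an EJC-enhanced NMD reporter and received DMSO, the solvent, or 0.5 uM of the SMG1 inhibitor SMG1i for 24 hours. Each of the 4 groups had 3 libraries of total RNA, 12 in all, and the labels do not say whether these came from separate cultures. The deposited files hold 1 comparison of the treatments for each variant and no values per library.

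Nonsense-mediated mRNA decay, NMD, removes mRNAs on which translation ends too early. The kinase SMG1 phosphorylates UPF1 during this process, so blocking SMG1 raises the level of NMD targets. An exon junction complex, EJC, lying downstream of a stop codon strengthens NMD, and the reporter called EJC-independent is degraded without relying on one. When a ribosome halts at a stop codon, the tRNA of the last sense codon still carries the peptide. Release factors then cut the bond between them. The penultimate residue is the next one up the peptide. Valine and isoleucine are hydrophobic residues whose side chains branch at the beta carbon, a feature they share with threonine. The study asked, from its title, whether the speed of this peptide release influences NMD.

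The windows printed next show the contrast on which the results turn. They share the threonine codon ACC as last codon, TAA as stop codon and T as base 10. This was the threonine context with the 7 valine and isoleucine codons listed in both tables at the highest minimum count, and it was taken up after the threonine values had been seen. Capitals mark bases 7 to 9.
valine GTT, stop: gttaccTAAt
valine GTC, stop: gtcaccTAAt
valine GTA, stop: gtaaccTAAt
valine GTG, stop: gtgaccTAAt
isoleucine ATT, stop: attaccTAAt
isoleucine ATC, stop: atcaccTAAt
isoleucine ATA, stop: ataaccTAAt
valine GTC, control: gtcaccTGGt
isoleucine ATC, control: atcaccTGGt

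The response used throughout is the log2 change in RNA level, with its sign turned so that stop variants are positive. No source names the numerator of the ratio, and a positive value is read here as more RNA in cells given the SMG1 inhibitor. In the authors' deposited table of EJC-independent values, the 4 valine windows of this threonine context had responses of 2.10 ± 0.23 (GTT), 2.80 ± 0.28 (GTC), 2.59 ± 0.16 (GTA) and 2.07 ± 0.25 (GTG), each with the authors' standard error over 3 against 3 libraries. In the same deposited table the 3 isoleucine windows had 2.68 ± 0.45 (ATT), 2.49 ± 0.18 (ATC) and 2.65 ± 0.33 (ATA). The mean of the 7 windows was 2.48, and 4 of 48 windows with another penultimate codon in this context were higher than that mean. The mean of those 48 was 2.01, with a standard deviation of 0.47. The 7 TGG windows averaged 0.14, between -0.17 and 0.86, and the 52 TGG windows with another penultimate codon averaged -0.13. The mean of the controls of the 7 codons was therefore also higher than that of their peers in this context, and 4 of those 52 were above it. That mean includes the GTA control, at 0.86 ± 0.85 in the authors' deposited table with a mean count of only 43.3. The remaining controls lay between -0.17 (ATA) and 0.22 (ATT). The same 7 stop windows in the EJC-enhanced reporter ran from 1.40 (GTG) to 3.36 (ATA) in the authors' deposited table. Their mean of 2.34 lay close to the 2.23 of 52 other windows, which had a standard deviation of 0.58. The window with ATA was also the one whose TGG control responded, by 1.91 ± 0.67 in the authors' deposited table of the EJC-enhanced reporter.

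Most valine and isoleucine stop windows responded to the inhibitor, as did stop windows in general. By the authors' deposited adjusted p under 0.05, 2467 of 2974 windows (83.0%) were higher with the inhibitor in the EJC-independent reporter, against 84.8% of all 28964 stop variants tested. For the EJC-enhanced reporter, 3131 of 3753 (83.4%) were higher by the authors' deposited table, against 85.7% of 34522. Both shares were near the background, so the count of responding windows sets these codons apart in neither reporter. The valine and isoleucine windows were also measured less deeply. Their median mean count was 178.3 against 255.1 for the other stop variants in the EJC-independent reporter and 111.2 against 147.6 in the EJC-enhanced reporter. Their median standard errors were 0.40 against 0.33 and 0.61 against 0.55, and the part of depth in the shares was not tested.

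Among the TGG controls with valine or isoleucine, 34 of 1101 were higher and 55 lower in the authors' deposited table of EJC-independent values, where the background over all TGG variants was 4.09% higher and 4.03% lower. For the EJC-enhanced reporter, 50 of 1474 controls were higher and 20 lower by the authors' deposited table, against a background of 2.76% and 1.37%. The mean response of these controls was -0.02 in the EJC-independent and 0.04 in the EJC-enhanced reporter, so without a stop codon the 7 codons showed almost no response.

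In the EJC-independent reporter valine had the highest mean response of the 20 penultimate amino acids, 1.86 ± 0.02 (standard error over 1721 windows, a 3.64-fold difference), and isoleucine ranked 3, with 1.81 ± 0.02 (1253 windows, 3.51-fold). Proline (1.82) lay between them and tyrosine (1.81) just behind isoleucine, and neither neighbour differed from isoleucine by more than its standard error. The lowest amino acid was arginine, at 1.57. All 7 codons were among the upper 12 of the 61 sense codons. GTA led with 1.90, followed by GTT with 1.87, GTC with 1.87 and ATA with 1.84, in places 1 to 4. ATT, GTG and ATC followed in places 10 to 12, at 1.81, 1.81 and 1.80. The standard errors were 0.03 to 0.05, so neighbours in this order did not differ beyond their error. The order was another one once each stop window was set against its own TGG window. GTC (1.92), GTT (1.88), GTG (1.84) and ATA (1.83) then took places 1, 3, 8 and 12 of 61, and ATT (1.76) and ATC (1.74) places 21 and 29. GTA fell to place 39, at 1.71 ± 0.07. Its TGG windows had the highest mean of the 61 codons, 0.08 ± 0.06, but their median was -0.07. Only 217 of the 309 GTA stop windows had a TGG window to be set against, and the median of these 217 differences was 1.83. The part of single outlying windows and of the missing TGG windows in the fall of GTA was not tested. By this measure valine still ranked 1 of 20 amino acids, at 1.86, while isoleucine ranked 7, at 1.76.

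The order was different in the EJC-enhanced reporter. Valine, at 2.30 ± 0.02, ranked 6 and isoleucine, at 2.29 ± 0.02, ranked 10 of 20 amino acids, which ran from lysine at 2.12 to proline at 2.34. GTA (2.33), ATA (2.32) and ATC (2.31) took places 11, 13 and 15 of 61 codons. GTC (2.31) and GTT (2.30) stood in places 22 and 26. GTG and ATT, at 2.25 and 2.24, were in places 50 and 52. The 7 codons were thus spread over the ranking rather than gathered at its top. Their means ran only from 2.24 to 2.33, with standard errors of 0.03 to 0.05, so their places were not well separated.

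To set last codon, stop codon and base 10 aside, windows were compared only with windows that shared all of them and had 1 of the other 54 sense codons at bases 1 to 3. The differences were averaged within each of the 61 last codons and then over last codons. The valine and isoleucine windows of the EJC-independent reporter were higher by 0.16 (SD 0.18 over last codons, a 1.12-fold difference), with unmatched means of 1.84 and 1.71. The difference was above 0 for 48 of 61 last codons and ran from -0.35 to 0.58. Valine gave 0.17 and isoleucine 0.15. These values restate what the codons were chosen for, and no test was applied to them.

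Values of the EJC-enhanced reporter were not used in the choice. There the same contrast was -0.01 (95% interval -0.05 to 0.03), with 32 of 61 last codons above 0 and unmatched means of 2.29 and 2.29. Valine gave -0.02 (95% interval -0.06 to 0.03) and isoleucine -0.02 (-0.08 to 0.04). With a minimum mean count of 50 in place of 10, valine gave 0.07 (95% interval 0.01 to 0.14). These intervals run over last codons measured in the same libraries, not over replicate cultures. Among TGG controls the contrast was 0.00 in both reporters (95% intervals -0.05 to 0.05 and -0.04 to 0.04). When each stop window was first set against its own TGG window, the contrast was 0.13 (SD 0.28, 43 of 61 last codons above 0) in the EJC-independent reporter and -0.05 (95% interval -0.12 to 0.02) in the EJC-enhanced one. Paired by last codon, the stop contrast was higher in the EJC-independent than in the EJC-enhanced reporter by 0.17 (SD 0.22), in 44 of 61 last codons. That gap contains the values that chose the codons and is given as a description. The 2 tables were normalized apart. A shift of all variants of 1 table cancels in a contrast within it. A difference between the tables in scale or depth would not cancel, and its part in the gap was not tested.

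The 2 amino acids were also set against each other. Both had been chosen for high values in the EJC-independent reporter, so their difference there is a description. Valine minus isoleucine, within shared contexts, was 0.01 (SD 0.39 over last codons) in the EJC-independent reporter and -0.03 (95% interval -0.09 to 0.03) in the EJC-enhanced one. The EJC-independent median over last codons was 0.07, with 36 of 61 above 0 and a lowest value of -1.66. The EJC-enhanced median was -0.08, with 22 of 61 above 0. A stricter comparison changed only base 1, from A to G, and kept base 3: GTT with ATT, GTC with ATC and GTA with ATA. Over 985 such pairs valine was higher by 0.09 (SD 0.38) in the EJC-independent reporter, and in 53.9% of pairs. Over 1411 pairs in the EJC-enhanced reporter the difference was 0.00 (95% interval -0.10 to 0.09), with valine higher in 49.7%. The EJC-enhanced interval includes 0, and differences of up to about 0.1 remain inside it. GTG against ATG, the methionine codon, gave 0.14 (SD 0.64) in the EJC-independent and -0.03 (95% interval -0.28 to 0.23) in the EJC-enhanced reporter.

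Synonymous codons were compared in the same way, for 6 pairs of valine codons and 3 of isoleucine codons. The 9 differences in the EJC-independent reporter ran from -0.15 (ATC minus ATA) to 0.14 (ATT minus ATC), with SDs over last codons of 0.44 to 0.85. For the EJC-enhanced reporter, 8 of 9 intervals included 0. The exception was GTT minus GTG, at 0.20 (95% interval 0.01 to 0.39), with GTT higher in 50.1% of 405 pairs. The TGG controls of that pair differed by 0.24 (95% interval 0.06 to 0.42), so a difference was present without a stop codon. With a minimum count of 50 the stop difference was 0.19 (95% interval -0.05 to 0.43). No adjustment was made for the 9 pairs.

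The codons stood higher than 9 groups of single-base neighbours in the EJC-independent reporter. Valine codons (GTN, with N any base) exceeded leucine codons CTN by 0.12, TTN (phenylalanine and leucine) by 0.15, alanine codons GCN by 0.12 and glycine codons GGN by 0.12. Isoleucine codons exceeded CTN by 0.14, TTN by 0.12, threonine codons ACN by 0.16, AAN (asparagine and lysine) by 0.18 and AGN (serine and arginine) by 0.15. These 9 values share the chosen windows and stay a description. The same 9 differences ran from -0.05 to 0.04 in the EJC-enhanced reporter, and the 95% interval of each included 0.

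All 3 stop codons showed the EJC-independent difference. The valine and isoleucine windows had mean responses of 1.81 before TAA, 1.76 before TAG and 1.96 before TGA, higher than the matched other windows by 0.14, 0.20 and 0.14. TGA gave the highest mean for each of the 7 codons, from 1.86 for GTG to 2.10 for GTA. The order TGA above TAA and TAG was also that of the other penultimate codons, at 1.83, 1.67 and 1.62. The EJC-enhanced means were 2.34, 2.22 and 2.32. TAG had the lowest mean for each of the 7 codons, for GTG and ATC by less than its standard error. The matched difference there was 0.05 for TAA (95% interval -0.02 to 0.13), -0.08 for TAG (-0.15 to -0.01) and 0.01 for TGA (-0.06 to 0.07). With a minimum count of 50 the TAG value was -0.01 (95% interval -0.09 to 0.06). TAA minus TAG was 0.13 (95% interval 0.01 to 0.25). It was 1 of 3 stop codon pairs compared in that reporter, with no adjustment for their number.

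By base 10, the EJC-independent difference was 0.15 with A, 0.19 with C, 0.12 with G and 0.16 with T. The 2 amino acids had different orders. Valine gave 0.22, 0.19, 0.15 and 0.14 with A, C, G and T, and isoleucine gave 0.04, 0.20, 0.10 and 0.24. For the EJC-enhanced reporter it was -0.06, 0.05, -0.05 and -0.01, and C minus G was 0.10 (95% interval 0.01 to 0.19), 1 of 6 base pairs compared. Isoleucine with T was -0.10 there (95% interval -0.18 to -0.02), and valine with T was 0.02 (-0.08 to 0.11). Over the combinations of stop codon and base 10, the EJC-independent difference was above 0 in each, from 0.01 for TGA with A to 0.36 for TAG with A. TAG with A was also where the EJC-enhanced difference was lowest, at -0.17 (95% interval -0.33 to -0.01). The mean of the 188 valine and isoleucine windows there was 1.96 in the EJC-independent reporter against 1.67 for the others. Of the EJC-enhanced reporter, 243 such windows had 2.24 against 2.31. TAG with G was close to TAG with A in the EJC-enhanced reporter, at -0.15 (95% interval -0.29 to -0.01). No adjustment was made for the number of combinations.

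Split by last amino acid, the EJC-independent difference ran over the widest range. This split has 20 groups, some of them small, and the part of their number and size in that range was not tested. By last amino acid, 18 of 20 differences were above 0. The highest were aspartate (0.40 ± 0.19, standard error over sets of windows sharing a context, 70 windows), isoleucine (0.35 ± 0.05, 135 windows) and lysine (0.32 ± 0.13, 34 windows). The lowest were tyrosine (-0.21 ± 0.09, 106 windows), proline (-0.01 ± 0.03, 300 windows) and glycine (0.03 ± 0.09, 103 windows). Aspartate and lysine were thinly filled, and their standard errors were larger than that of isoleucine. Only 7 of 20 differences were above 0 in the EJC-enhanced reporter. Threonine (0.25, 95% interval 0.12 to 0.38), glutamine (0.21, 0.05 to 0.37) and asparagine (0.14, -0.08 to 0.35) were the highest. Glutamate (-0.28, -0.72 to 0.15), isoleucine (-0.19, -0.34 to -0.04) and lysine (-0.14, -0.60 to 0.33) were the lowest. With a minimum count of 50 glutamate turned to 0.43 and lysine to 0.24 in the EJC-enhanced reporter, and aspartate fell to 0.21 in the EJC-independent one. Threonine stayed between 0.25 and 0.27 in the EJC-enhanced reporter under 4 alternatives. No adjustment was made for the 20 amino acids.

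Valine and isoleucine stood high before threonine in both reporters. The difference was above 0 in both for 6 of 20 last amino acids. Besides threonine these were glutamine (0.18 and 0.21), asparagine (0.15 and 0.14), aspartate (0.40 and 0.05), methionine (0.31 and 0.03) and phenylalanine (0.03 and 0.00). In the EJC-independent reporter, whose values chose the codons, 18 of 20 differences were above 0, against 7 of 20 in the EJC-enhanced one. Most of the 7 therefore had to be shared, and the count of 6 shows no link between the reporters. Before threonine, 210 EJC-independent windows averaged 2.38 against 2.05 for the other penultimate codons. The matched difference was 0.30 ± 0.07 and ranked 5 of 20. In the EJC-enhanced reporter the mean was 2.56 over 268 windows against 2.30. All 4 threonine codons went the same way in both reporters. ACA, ACC, ACG and ACT gave 0.31, 0.33, 0.23 and 0.31 in the EJC-independent and 0.20, 0.18, 0.25 and 0.38 in the EJC-enhanced reporter. The standard errors were 0.07 to 0.23. Ranked among the 20 penultimate amino acids before threonine, valine (2.43) was first and isoleucine (2.29) second in the EJC-independent reporter. In the EJC-enhanced reporter tryptophan (2.65 ± 0.15, 37 windows) was first, followed by valine (2.57 ± 0.06) and isoleucine (2.55 ± 0.07).

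Each of the 7 codons had a mean of 2.46 to 2.66 before threonine in the EJC-enhanced reporter, above the 2.30 of the other penultimate codons. The EJC-enhanced difference before threonine was 0.25, and that over the other last amino acids was -0.03. Threonine was looked at because its difference was the highest of 20, so no test was made of this gap. The TGG windows with threonine codons gave 0.04 in the EJC-independent and 0.03 in the EJC-enhanced reporter, so the controls were near 0. The deepest single threonine context, printed above, had a smaller difference in the EJC-enhanced reporter, 2.34 against 2.23.

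With isoleucine as last amino acid the mean difference had opposite signs in the 2 reporters, although the 7 codons were not alike in the EJC-enhanced one. The next windows end in the isoleucine codon ATC, TGA and C, the deepest isoleucine context with all 7 codons, also taken up after the values had been seen. Capitals again mark bases 7 to 9.
valine GTT, before isoleucine: gttatcTGAc
valine GTC, before isoleucine: gtcatcTGAc
valine GTA, before isoleucine: gtaatcTGAc
valine GTG, before isoleucine: gtgatcTGAc
isoleucine ATT, before isoleucine: attatcTGAc
isoleucine ATC, before isoleucine: atcatcTGAc
isoleucine ATA, before isoleucine: ataatcTGAc

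In the authors' deposited table of EJC-independent values the valine windows of this context had responses of 1.82 ± 0.32 (GTT), 2.42 ± 0.18 (GTC), 2.29 ± 0.30 (GTA) and 2.05 ± 0.19 (GTG). In the same deposited table the isoleucine windows had 2.25 ± 0.21 (ATT), 2.44 ± 0.17 (ATC) and 2.14 ± 0.14 (ATA). The mean of the 7 windows, 2.20, was above all but 4 of the 50 other windows of the context, which averaged 1.63 with a standard deviation of 0.48. The EJC-enhanced windows of this context averaged 2.18, and 35 of 52 other windows were above that mean. The window with ATA had 1.75 ± 1.77 and an adjusted p of NA in the authors' deposited table of that reporter. The 7 TGG windows of this context averaged 0.43 in the EJC-enhanced reporter, against 0.06 for 54 others, of which 5 were above that mean. In the EJC-independent reporter they averaged 0.08 against -0.02. Over all isoleucine codons, 135 windows averaged 1.95 against 1.64 in the EJC-independent reporter and 184 windows averaged 2.20 against 2.34 in the EJC-enhanced reporter. The 3 last codons ATA, ATC and ATT gave 0.48, 0.25 and 0.34 in the first and -0.15, -0.15 and -0.26 in the second. The 7 penultimate codons did not share the lower EJC-enhanced level. GTG (2.53 ± 0.18) and ATA (2.50 ± 0.28) were above the 2.34 of the other codons. GTT (1.91 ± 0.14), ATT (1.95 ± 0.13), GTA (2.13 ± 0.17), GTC (2.20 ± 0.10) and ATC (2.26 ± 0.09) were below it. Valine and isoleucine ranked 1 and 2 of 20 penultimate amino acids before isoleucine in the EJC-independent reporter and 18 and 16 in the EJC-enhanced one. Their TGG windows gave -0.06 and 0.01. The difference between the reporters was not tested, since 1 side of it chose the codons.

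Proline and tyrosine as last residues lacked the EJC-independent difference. Before proline 300 valine and isoleucine windows averaged 1.76, and the other penultimate codons averaged 1.77. The contexts with the most complete data, taken by listing and count alone, all ended in the proline codon CCC with C as base 10. The windows with TGA are printed with their control as an example of a context in which the mean of the 7 codons did not stand out in the EJC-independent reporter.
valine GTT, before proline: gttcccTGAc
valine GTC, before proline: gtccccTGAc
valine GTA, before proline: gtacccTGAc
valine GTG, before proline: gtgcccTGAc
isoleucine ATT, before proline: attcccTGAc
isoleucine ATC, before proline: atccccTGAc
isoleucine ATA, before proline: atacccTGAc
isoleucine ATC, before proline, control: atccccTGGc

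In the authors' deposited table of EJC-independent values these had responses of 2.19 ± 0.09 (GTT), 1.76 ± 0.08 (GTC), 2.32 ± 0.23 (GTA), 1.53 ± 0.12 (GTG), 1.67 ± 0.09 (ATT), 1.86 ± 0.07 (ATC) and 1.72 ± 0.13 (ATA). The mean of 1.86 compared with 1.80 for the 54 other codons, whose standard deviation was 0.18. GTT and GTA were above that range of 1 standard deviation and GTG was below it, so these deep windows (mean counts of 504 to 7974) differed among synonymous codons by more than their standard errors. The same order was not seen in the EJC-enhanced reporter, where GTG had the highest response (3.05 ± 0.34) and GTA the lowest (2.00 ± 0.34) in the authors' deposited table. With TAA and TAG in place of TGA the 7 windows averaged 1.65 and 1.72 in the EJC-independent reporter, against 1.66 and 1.66 for the others. The EJC-enhanced windows averaged 2.19, 2.14 and 2.48 with TAA, TAG and TGA, against 2.25, 2.26 and 2.23. With TGA the 7 codons were thus higher there by about the standard deviation of the 54 others, 0.25. The TGG windows, shared by the 3 contexts, ran from -0.62 (GTA) to 0.15 (ATA) in the EJC-independent and from -0.11 to 0.19 in the EJC-enhanced reporter.

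Before tyrosine 106 valine and isoleucine windows averaged 1.28 against 1.43 in the EJC-independent reporter. The codon TAT gave -0.35 ± 0.13 and TAC -0.08 ± 0.12. Valine and isoleucine ranked 18 and 20 of 20 penultimate amino acids there, against 1 and 3 over all last codons. With windows weighted by the inverse of their squared standard errors the tyrosine difference turned to 0.02, and with a minimum count of 50 it was -0.03. The tyrosine difference of the EJC-enhanced reporter was -0.04 (95% interval -0.22 to 0.13).

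Single windows spread widely around these means. Among 1877 valine and isoleucine stop windows with a mean count of at least 100 in the EJC-independent reporter, responses ran from 0.21 to 3.98 with a median of 1.81. The other stop variants above that count had a median of 1.68. The 4 highest and 4 lowest windows are printed to show which sequences lay at the ends.
highest 1, valine before alanine: gttgccTGAg
highest 2, valine before threonine: gtaactTGAt
highest 3, valine before arginine: gtgcgcTAAa
highest 4, valine before isoleucine: gtaattTGAt
lowest 1, isoleucine before tyrosine: atctatTAAa
lowest 2, valine before phenylalanine: gtgttcTGAc
lowest 3, valine before threonine: gttaccTAGg
lowest 4, isoleucine before aspartate: atagacTAGa

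The 4 highest windows had responses of 3.98 ± 0.56, 3.84 ± 0.44, 3.67 ± 0.38 and 3.57 ± 0.38 in the authors' deposited table, 11.9- to 15.8-fold differences. All 4 began with a valine codon and 3 of them carried TGA. Their TGG windows lay between -0.46 and 0.03. In the authors' deposited EJC-enhanced table the same 4 windows had 3.92 ± 0.98, 3.53 ± 0.52, 1.77 ± 0.75 and 4.72 ± 0.79. Their mean counts there were 39.1, 133.0, 75.5 and 64.4, so only gtaactTGAt reached the count required of windows named singly. Of the 4 values, 3 were above the median of 2.29 there, but the standard errors were large. The 4 lowest windows had 0.21 ± 0.57, 0.23 ± 0.70, 0.32 ± 0.23 and 0.47 ± 0.50, with deposited adjusted p of 0.774, 0.792, 0.219 and 0.429 in the authors' deposited table. One of them, gttaccTAGg, shares its valine and threonine codons with gttaccTAAt, whose response was 2.10 in the authors' deposited table. The mean count of gttaccTAGg was 459 in the EJC-independent reporter, and its response in the authors' deposited table of the EJC-enhanced reporter was 3.42 ± 0.68.

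A mean count of at least 100 was reached by 2041 windows in the EJC-enhanced reporter, and responses ran from -0.97 to 6.25 with a median of 2.33. Its 4 highest and 4 lowest windows are printed next.
highest 1, valine before arginine: gttagaTGAc
highest 2, valine before cysteine: gtgtgcTAAg
highest 3, isoleucine before arginine: attcgtTAGa
highest 4, valine before leucine: gtactaTAGt
lowest 1, valine before valine: gttgtaTAGc
lowest 2, valine before glutamine: gtccaaTAAg
lowest 3, valine before tyrosine: gtctacTAAt
lowest 4, valine before alanine: gtcgcgTAGc

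The 4 highest had responses of 6.25 ± 1.04, 6.02 ± 1.00, 5.87 ± 0.97 and 5.31 ± 1.52 in the authors' deposited table. In the EJC-independent reporter, where each had a mean count of 551 or more, the authors' deposited table gave 1.91, 1.46, 2.72 and 1.87. Of these 4, only attcgtTAGa was far above the EJC-independent median of 1.81. The window gtgtgcTAAg also had a TGG window with a response of 2.54 ± 0.84 in the authors' deposited table. The 4 lowest had -0.97 ± 1.03, -0.31 ± 0.71, -0.29 ± 1.39 and 0.28 ± 0.94, each within 1 standard error of 0 in the authors' deposited table. In the EJC-independent reporter the same 4 windows had 1.37, 1.19, 2.02 and 1.60 in the authors' deposited table.

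Of the valine and isoleucine stop windows, 2613 passed the count minimum in both tables. Their mean response was 1.84 in the EJC-independent and 2.35 in the EJC-enhanced reporter, and 73.6% of them were higher in the latter, against 79.9% of 23558 windows with another penultimate codon. Levels are set across tables that were normalized apart, so these shares carry any offset between them. Across the 2613 windows Pearson's r between the reporters was 0.03, as a description over sequences that are not independent replicates. Among 1446 windows with a mean count of at least 100 in both tables it was 0.04.

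Coverage of the library differed among the codons. In the EJC-independent table GTC was listed in 79.0% of its 732 possible stop windows and ATC in 75.5%, while GTA was listed in 42.2% and ATA in 38.8%. GTT, ATT and GTG lay between, at 67.1%, 57.4% and 48.0%. The same order of GTC and ATC above GTA and ATA held in the EJC-enhanced table, at 91.4% and 88.4% against 62.2% and 55.1%. The median mean count ran from 95.9 for GTA to 277.6 for GTC in the EJC-independent reporter. GTA, the codon with the highest mean response there, was the least deeply measured of the 7, and its standard deviation over windows was 0.79 against 0.67 for GTC.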

How the data were processed

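RNA was measured in 12 libraries of HEK293T cells, 3 in each of 4 groups (reporter by treatment). Per the file headers, the authors deposited for each variant a mean normalized count over libraries (a signal scaled by the authors, not a raw count), a log2 fold change and the standard error of it, a Wald score and raw and adjusted p-values. The submitters' processing notes name DESeq and DESeq2 without versions. Read processing and variant assignment were not given in the sources used here. The 2 tables were normalized apart. Depth per library is unknown.

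Here, with Python 3.11.15, pandas 2.3.3, numpy 2.4.6 and scipy 1.17.1, the log2 fold change was given the opposite sign, windows with a stop codon at bases 1 to 6 were left out, and a mean count of at least 10 was required. Windows were compared within sets sharing last codon, bases 7 to 9 and base 10, differences were averaged within and then over 61 last codons, and 95% t intervals were taken over last codons (over sets for a single last amino acid). These cover the spread between sequences, not between cultures. The steps were tested on simulated data. Single variants were called by the deposited adjusted p under 0.05, and an adjusted p given as NA was kept as not called (1 and 22 valine or isoleucine stop windows). The codons and the lists were chosen with earlier results of these data known. Windows named singly were the 4 highest and 4 lowest with a mean count of at least 100, and the 3 contexts most completely listed in both tables. Last amino acids named were the 3 highest and 3 lowest in each reporter, and the threonine and isoleucine contexts were added after their values were seen. Alternatives were a count minimum of 50 or none, medians, inverse variance weights, no matching, a linear term for G or C content, leaving out GTAAG and GTGAG windows, and an adjusted p under 0.01.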

Additional observations from a re-analysis of the deposited data

How the results depend on the processing

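Of 88 values of the main comparisons under the alternatives, 87 moved by no more than the distance from the reported value to the end of its 95% interval or, for counts of called windows, by no more than 1.5 times. The valine and isoleucine difference in the EJC-independent reporter ran from 0.14 to 0.18. The exception was the EJC-enhanced difference, which was 0.041 (95% interval -0.01 to 0.09) with a count minimum of 50 in place of -0.01, and valine alone gave 0.07 there (95% interval 0.01 to 0.14). The cause was not tested. Of 404 values for single codons and last amino acids, 396 stayed within that distance, 7 moved by more and 1 reversed. The reversed value was tyrosine as last amino acid in the EJC-independent reporter, 0.016 with inverse variance weights. Before glutamate the EJC-enhanced difference was 0.43 with a count minimum of 50, from 43 windows in all at the lower minimum.

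No paired analysis was possible because the deposited files hold 1 comparison per variant and no values per library. For the same reason no library could be left out and no other size factors could be computed. Depth limits single windows: the median standard error of a response was 0.40 in the EJC-independent and 0.61 in the EJC-enhanced reporter, larger than the differences between codons.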

Other observations

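Valine codons bring the letters GT, and a GTA or GTG codon followed by a last codon starting with AG spells GTAAG or GTGAG, the letters with which many introns begin. In the EJC-independent reporter 22 such stop windows had a mean response of 1.74 ± 0.23 (standard error over windows), against 1.86 ± 0.03 for 634 other GTA and GTG windows. In the EJC-enhanced reporter 36 such windows had 2.32 ± 0.13 against 2.29 ± 0.03 for 867 others. GTT and GTC windows with the same last codons had 2.05 ± 0.10 (53 windows) and 2.17 ± 0.10 (68 windows). The GTAAG and GTGAG windows were thus lower than these in the EJC-independent and higher in the EJC-enhanced reporter, each time by less than the sum of the standard errors. Their median mean count was lower, at 68.4 against 120.6 and 38.5 against 78.3. The GTT and GTC windows also had lower median counts, 89.0 and 58.1. Whether any window was spliced was not tested.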
